A study of Mus musculus with 15 samples.

Results

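The distal stretch of mouse chromosome 8 that runs from Ndufb7 to Itgb1 was followed in 15 liver samples measured on Affymetrix arrays. Its members were all genes of the stretch, in the gene order of assembly GRCm38, with a probe set above the 40th percentile of its array in 3 or more arrays. Junb, Mt1, Mt2, Hp, Tat, Nqo1, Cdh1, Cdh5, Mmp2, Herpud1 and the Ces, Nduf and Cox genes were left out, 21 genes in all, Ndufb7 among them. This gave 246 members of the 9528 genes measured above the same limit. The borders of the stretch were drawn where tumours of this series read low, so the level of the members in the tumours is described here and not tested. Of 293 genes of the stretch with a probe set at any level, left-out genes apart, 47 missed the limit. The 5 members that were above it in exactly 3 arrays had mean signals of 16.2 to 22.4, and the 9 genes above it in exactly 2 arrays had 11.6 to 21. Dpep1 passed through knockout livers only. With Dpep1 counted, 6 members were above the limit in no tumour and 9 in no heterozygous liver, and 2 were above it in no knockout liver. For these the limit itself favoured a direction.

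The mice carried a disrupted Mdr2 gene, now called Abcb4, which encodes the transporter that moves phosphatidylcholine into bile. All samples came from mice 16 months of age. There were 6 tumours and 6 non-tumorous livers of homozygous knockout mice and 3 livers of heterozygous mice, which carry 1 disrupted copy. Tumours 3 and 4 were taken from mice 3 and 4, tumours 5-1 and 5-2 from mouse 5, and tumours 6-1 and 6-2 from mouse 6, each numbered like its non-tumorous liver. Strain, sex and the disrupted part of the gene were not given in the labels.

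Neighbouring genes on a chromosome mostly serve unrelated functions and are mostly regulated one by one. In tumours, gains and losses of long chromosome stretches are common, and the RNA of many neighbouring genes can then shift together. RNA arrays do not count gene copies, and copy number was not measured in these samples.

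Promoters are shown for 4 members of the stretch that the results turn on: Nfix and Zfpm1, both encoding regulators of transcription, Dpep1, encoding a membrane dipeptidase, and Sult5a1, encoding a sulfotransferase. Each is the 250 bases before the start site, 5′ to 3′ on the strand of the gene, from the RefSeq annotation of GRCm38.p6. They lie on chromosome 8 at chr8:84780083-84780332 on the minus strand (Nfix, the outermost of 4 start sites), chr8:122281891-122282140 on the plus strand (Zfpm1), chr8:123185985-123186234 on the plus strand (Dpep1) and chr8:123158281-123158530 on the minus strand (Sult5a1). Capitals mark GGGCGG, the GC box, on either strand.
Nfix: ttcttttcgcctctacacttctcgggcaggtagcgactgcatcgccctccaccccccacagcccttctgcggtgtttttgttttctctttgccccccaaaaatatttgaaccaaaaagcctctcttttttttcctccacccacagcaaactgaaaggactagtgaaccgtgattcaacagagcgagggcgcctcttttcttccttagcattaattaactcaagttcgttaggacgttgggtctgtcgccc
Zfpm1: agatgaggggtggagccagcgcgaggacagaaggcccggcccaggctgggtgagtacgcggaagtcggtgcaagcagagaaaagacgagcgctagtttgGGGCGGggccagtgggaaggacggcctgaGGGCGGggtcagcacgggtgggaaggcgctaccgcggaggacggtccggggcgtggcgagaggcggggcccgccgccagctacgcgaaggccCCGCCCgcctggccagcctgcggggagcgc
Dpep1: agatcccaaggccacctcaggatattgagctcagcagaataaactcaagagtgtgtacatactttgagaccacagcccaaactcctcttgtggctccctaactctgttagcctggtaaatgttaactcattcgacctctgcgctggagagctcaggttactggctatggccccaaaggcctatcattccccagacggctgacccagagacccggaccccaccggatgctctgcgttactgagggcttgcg
Sult5a1: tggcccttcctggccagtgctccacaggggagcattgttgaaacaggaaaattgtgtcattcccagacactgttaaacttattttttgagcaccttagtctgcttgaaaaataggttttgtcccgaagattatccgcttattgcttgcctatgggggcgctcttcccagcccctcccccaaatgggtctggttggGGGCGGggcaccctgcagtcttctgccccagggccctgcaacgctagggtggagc
The 4 promoters were unlike each other. That of Zfpm1 held 28 CpG sites and 3 GC boxes at a GC content of 73.2%, that of Nfix 11 CpG sites and no GC box, that of Dpep1 7 and no GC box, and that of Sult5a1 5 and 1 GC box. A GC box was found in 59.8% of 229 such windows of 191 members and in 32.7% of all 32851 windows, which include those of non-coding and silent genes. TATAAA was found in 7.4% of the windows of members and 12.4% of all windows, and in none of the 4 shown. CCAAT was in 29.7% and 33.8%, and in none of the 4. The median number of CpG sites was 17.0 in windows of members and 6.0 in all windows.

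Median signals of the 15 arrays were 35.8 to 51.2. The mean signal of Abcb4, the check of the genotype, was 890 ± 114 (SD, n = 3) in heterozygous livers, 236 ± 46.2 (SD, n = 6) in knockout livers and 302 ± 208 (SD, n = 6) in tumours. It ran from 778.9 to 1006.4, from 177.4 to 305.7 and from 122.5 to 681.1 in these groups. The highest tumour thus lay between knockout and heterozygous livers. Actin probe sets at the 3′ end read above those at the 5′ end, a sign of RNA loss from the 5′ end, by a factor of 2.55 to 3.37 in heterozygous livers, 1.74 to 2.74 in knockout livers and 1.51 to 2.06 in tumours. Signals summed over 10 hepatocyte markers were 117799 to 127012, 90623 to 116074 and 73318 to 93151 in the same groups. Precision is limited by how many arrays there are, and 4 of the 6 tumours share an animal with another tumour.

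Tumours 3, 5-1 and 6-2 had a low median over the members of the stretch, and tumours 4, 5-2 and 6-1 did not. For each sample the log2 ratio of each gene to the mean of the 6 knockout livers (of the other 5 for a knockout liver) was taken and centred on the median of all 9528 genes, so that 0 is the level of a typical gene. Tumour 6-2 had a median of -0.57 over the 246 members, 1.49-fold lower. Tumour 3 had -0.53, 1.44-fold lower. Tumour 5-1 had -0.43, 1.35-fold lower. The other tumours lay near 0: tumour 4 at -0.049, tumour 5-2 at 0.074 and tumour 6-1 at -0.034. Knockout livers lay between -0.10 (liver 6) and 0.074 (liver 5), with livers 1, 2, 3 and 4 at 0.010, 0.025, -0.026 and 0.052. Heterozygous livers 1, 2 and 3 lay at 0.081, 0.032 and -0.034. The values of tumours 3, 5-1 and 6-2 were therefore below those of all 12 other samples, and tumours 4, 5-2 and 6-1 lay within the range of the livers. Their place in that range depended on the centring. With no centring tumour 4 had -0.150, below the lowest liver (knockout liver 6, -0.103). Tumour 5-2 then had 0.111, just above the highest (heterozygous liver 1, 0.107).

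**Figure D1:**
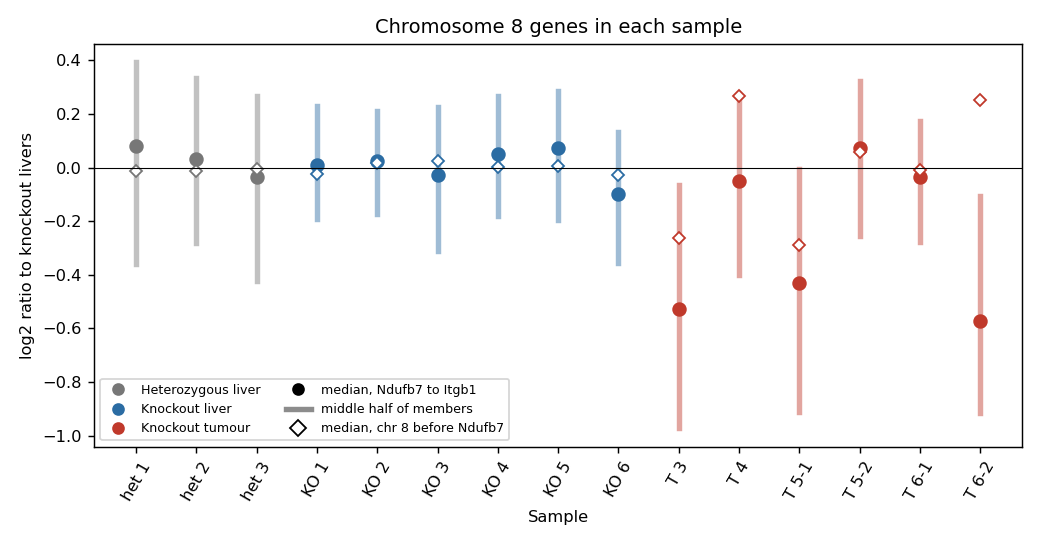
Median log2 ratio of the 246 members in each sample (filled circles, with a bar from the 25th to the 75th percentile of the members) and of the 245 chromosome 8 genes before Ndufb7 (open diamonds), against the knockout livers, for heterozygous livers (het), knockout livers (KO) and tumours (T). Tumours 3, 5-1 and 6-2 lie at -0.53, -0.43 and -0.57, and every other sample lies between -0.10 and 0.081.

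The shift was spread over many members and not held by a few. In tumour 6-2, 194 of 246 members (78.9%) were below 0, in tumour 3 191 (77.6%) and in tumour 5-1 185 (75.2%). In tumours 4, 5-2 and 6-1 the counts were 139, 106 and 134. Members that read below all 6 knockout livers numbered 141 in tumour 6-2 (57.3%, against 21.4% of all genes), 138 in tumour 3 (56.1%, against 24.4%) and 110 in tumour 5-1 (44.7%, against 21.1%). They numbered 73 in tumour 4 (29.7%, against 28.1%), 41 in tumour 5-2 (16.7%, against 19.7%) and 41 in tumour 6-1 (16.7%, against 14.3%). The last 3 shares are near those of all genes. The rule used these same values, so nothing is read from the excess in the others.

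**Figure D2:**
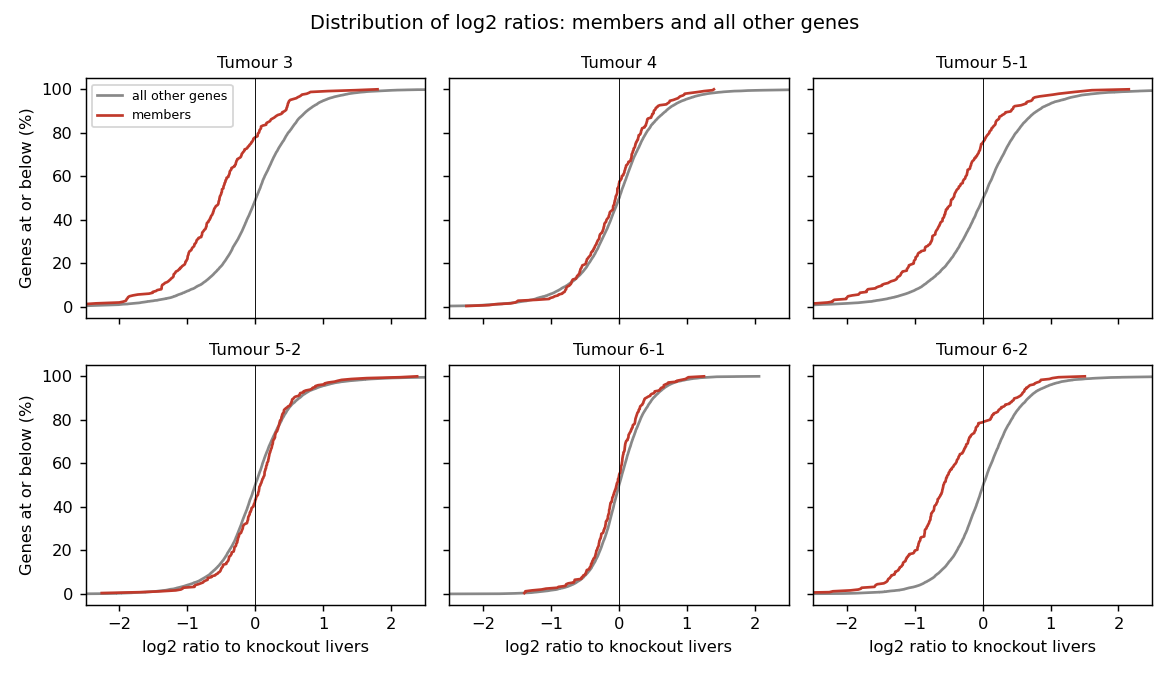
Share of genes (vertical axis, percent) at or below each log2 ratio to the knockout livers (horizontal axis) in the 6 tumours, for the 246 members and for all other genes. The curve of the members is shifted to the left as a whole in tumours 3, 5-1 and 6-2, where 77.6%, 75.2% and 78.9% of members are below 0, and runs close to that of the other genes in tumours 4, 5-2 and 6-1.

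Bright genes were lower than dim ones. Among the 82 members with the highest mean over all arrays, with signals of 141 to 3523, the median log2 ratio was -0.73 in tumour 3, -0.77 in tumour 5-1 and -0.78 in tumour 6-2. Among the 82 dimmest, with signals of 15.8 to 52.9, it was -0.024, -0.075 and -0.13. The middle members had -0.50, -0.31 and -0.59. Over all genes of the array as bright as the brightest members, the medians in the same tumours were -0.027, -0.17 and -0.055. Over all genes as dim as the dimmest members they were 0.112, 0.140 and 0.158, above those of the dim members. In tumours 4, 5-2 and 6-1 the bright members had 0.042, -0.013 and -0.015. Without the constant of 9.1 that was added to all signals before taking logarithms, the medians over all members were -0.585, -0.499 and -0.646 in tumours 3, 5-1 and 6-2, and the part of background signal in the weaker shift of dim genes was not tested.

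A further probe set of the same gene gave a second reading from the same RNA. For the 85 members with 2 or more probe sets above the limit, the second brightest had a median of -0.51 in tumour 3, -0.54 in tumour 5-1 and -0.455 in tumour 6-2, against -0.69, -0.54 and -0.68 from the brightest. In tumours 4, 5-2 and 6-1 the second probe sets had 0.039, 0.125 and 0.038. Both probe sets had the same sign for 68, 63 and 66 of 85 genes in tumours 3, 5-1 and 6-2, and for 58, 54 and 49 in tumours 4, 5-2 and 6-1. The 21 left-out genes of the stretch had medians of -0.61, -0.92 and -0.60 in tumours 3, 5-1 and 6-2. In tumours 4, 5-2 and 6-1 they had 0.006, -0.121 and 0.121, and in livers from -0.150 (knockout liver 3) to 0.259 (heterozygous liver 3). They lie within the same borders, drawn where tumours read low, so their low values are no separate support.

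The low level was found in blocks all along the stretch. Divided into 12 blocks of 20 or 21 neighbouring members, the stretch had medians below 0 in 12 of 12 blocks in each of tumours 3, 5-1 and 6-2. They ran from -0.67 to -0.37 in tumour 3, from -0.745 to -0.20 in tumour 5-1 and from -0.84 to -0.34 in tumour 6-2. The block from Farsa to Gpt2 was the lowest in tumours 3 and 6-2, and the block from Trappc2l to Abcb10, which holds Dpep1, was the lowest in tumour 5-1 at -0.745 and stood at -0.79 in tumour 6-2. The shallowest blocks were Sf3b3 to Cenpn in tumour 3, Sntb2 to Il34 in tumour 5-1 and Zdhhc7 to Galns in tumour 6-2. In tumour 4 the blocks ran from -0.18 to 0.092, in tumour 5-2 from -0.10 to 0.27 and in tumour 6-1 from -0.32 to 0.11. In knockout livers they ran from -0.29 to 0.27 and in heterozygous livers from -0.325 (liver 1) to 0.23, so the shallowest blocks of tumour 5-1 overlapped those of livers. The block from Trappc2l to Abcb10 stood at -0.325, -0.146 and -0.26 in heterozygous livers 1, 2 and 3.

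The near edge of the low stretch differed between tumours, and only in tumour 6-2 did it lie close to Ndufb7. Along all 512 chromosome 8 genes, the split into 2 runs that left the smallest summed deviation from the medians of the runs fell between Sin3b and Hmgxb4 in tumour 6-2, 15 genes before Ndufb7. The 230 genes before it had a median of 0.28 and the 282 after it -0.57, and the split took away 21.6% of the summed deviation. In tumour 3 it fell between Fgl1 and Pcm1, 123 genes before Ndufb7, with medians of 0.019 and -0.52 and 5.86% of the deviation taken away. In tumour 5-1 it fell between Vps36 and Tpte, 181 genes before Ndufb7, with medians of 0.085 and -0.45 and 3.85% taken away. Tumour 4 had a split of another kind, between Trmt1 and Lyl1, 18 genes after Ndufb7, from a median of 0.27 to -0.057, which took away 4.84%. Its place was not stable: in 7 of 10 alternatives it lay at -14 or -15 counted in genes from Ndufb7, beside the split of tumour 6-2. In tumours 5-2 and 6-1 and in the 9 livers no split took away more than 1.33%.

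**Figure D3:**
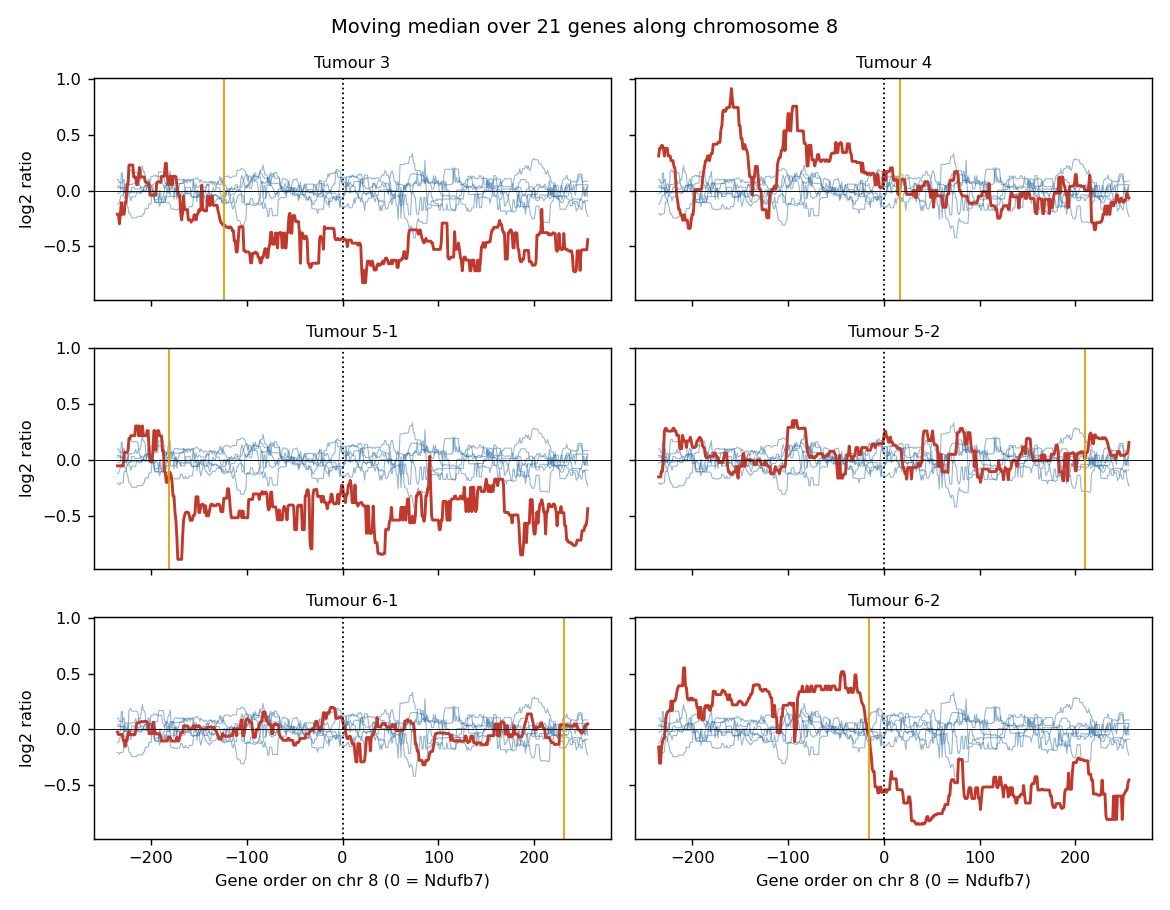
Moving median over 21 genes of the log2 ratio to the knockout livers (vertical axis) along the chromosome 8 gene order (horizontal axis, 0 at Ndufb7) for each tumour (thick line) and the 6 knockout livers (thin lines). The dotted line marks Ndufb7 and the solid vertical line the best split into 2 runs, which lies 123, 181 and 15 genes before Ndufb7 in tumours 3, 5-1 and 6-2 and took away 0.272% and 0.348% of the deviation in tumours 5-2 and 6-1.

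The part of chromosome 8 before Ndufb7 differed between tumours. Its 245 genes had medians of -0.26 in tumour 3 and -0.29 in tumour 5-1, since the low run reaches into them, and of 0.25 in tumour 6-2 and 0.27 in tumour 4. Tumours 5-2 and 6-1 had 0.057 and -0.010, and the 9 livers lay between -0.026 and 0.026. Tumour 6-2 thus joined a higher near part to a lower distal part of the same chromosome. Chromosome medians of the other autosomes and X ran from -0.17 to 0.24 in tumour 6-2. They ran from -0.095 to 0.69 in tumour 3 and from -0.33 to 0.12 in tumour 5-1. The members were below the lowest of these in each of the 3 tumours. They are part of a chromosome with borders drawn where tumours read low, set against whole chromosomes, so nothing is read from this.

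At the near edge single genes showed how noisy 1 gene is. In tumour 6-2 the 5 genes before Ndufb7 were low already: Smarca5, a chromatin remodeller, at -0.38, Gab1, an adaptor of growth factor receptors, at -1.67, Usp38, which removes ubiquitin, at -1.20, Zfp330 at -0.38 and Scoc at -0.77. Of the first 5 members, Tecr, which makes very long chain fatty acids, was at -1.39, Gipc1 at -0.44 and the helicase Ddx39a at -0.76. Dnajb1, a heat shock co-chaperone, was at 0.28 and Adgre5, a receptor of leukocytes, at 0.58. In tumour 3 these 5 members ran from -1.94 (Dnajb1) to 1.47 (Adgre5), and in tumour 5-1 from -1.70 (Tecr) to 0.77 (Adgre5). The 20 genes next to Ndufb7 on either side had medians of -0.34 outside and -0.46 inside in tumour 3, -0.34 and -0.30 in tumour 5-1, and -0.38 and -0.40 in tumour 6-2. Values were low on both sides of Ndufb7 in all 3. Over 41 genes a side, tumour 6-2 had 0.16 outside and -0.58 inside.

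The far edge could not be seen, because Itgb1 was the last chromosome 8 gene above the limit. The last 20 genes had medians of -0.43 in tumour 3, -0.34 in tumour 5-1 and -0.42 in tumour 6-2, against -0.060, 0.16 and 0.071 in tumours 4, 5-2 and 6-1 and -0.253 in knockout liver 6, the lowest liver. Over the last 10 genes tumour 5-1 was at -0.057, within the range of the livers, and tumour 6-2 at -0.292, above knockout liver 6 at -0.347. Of the last 5 genes in tumour 6-2, Coa6, which helps to assemble cytochrome oxidase, was at -0.46, Tomm20, of the mitochondrial import pore, at -0.37 and the polarity gene Pard3 at -0.63. Nrp1, a receptor for VEGF and semaphorins, was at -0.071 and Itgb1, integrin beta 1, at -0.21.

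Mice 5 and 6 each gave a tumour with a low stretch and one without, so that values can be set side by side within the animal and with no liver as reference. Since the borders of the stretch were drawn on these low tumours, the direction over the members was given by that choice. Over the members, tumour 5-1 was below tumour 5-2 by a median log2 ratio of -0.455, 1.37-fold, with 192 of 246 members below 0 (78.0%). Tumour 6-2 was below tumour 6-1 by -0.53, 1.44-fold, with 188 members below 0 (76.4%). Members at least 2-fold lower numbered 55 of 246 in the first pair, where 8.58% of all genes were that much lower, and 43 of 246 in the second, where 4.76% were. In the same pairs 6 and 5 members were at least 2-fold higher. Before Ndufb7 the pairs went opposite ways, with medians of -0.39 in mouse 5 and 0.24 in mouse 6.

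**Figure D4:**
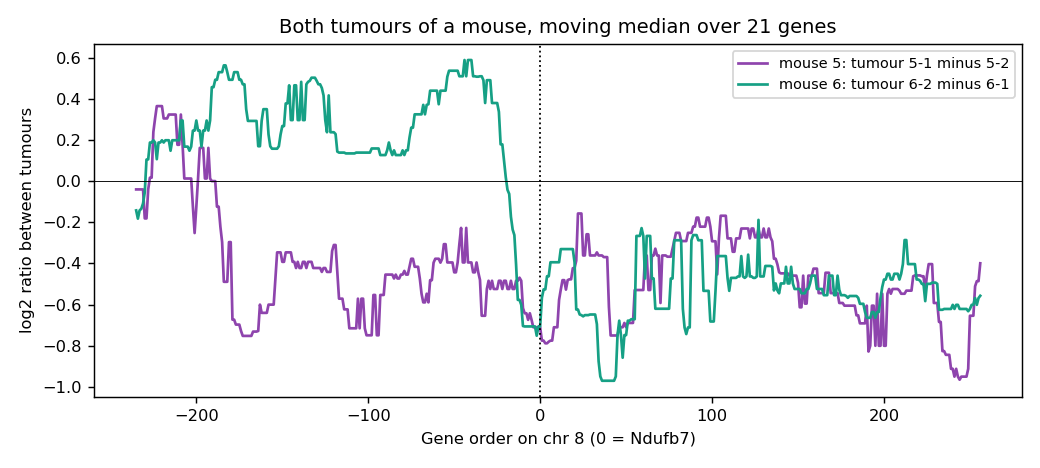
Moving median over 21 genes of the log2 ratio between both tumours of a mouse (vertical axis) along the chromosome 8 gene order (horizontal axis, 0 at Ndufb7) for mouse 5 and mouse 6. After Ndufb7 both lines lie below 0, with medians of -0.455 and -0.53 over the members; before it the medians are -0.39 in mouse 5 and 0.24 in mouse 6.

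Nfix, Zfpm1 and Dpep1 were chosen because they read low in these tumours, so their differences from knockout livers are described and not tested. Nfix, a transcription factor of the nuclear factor I family, was less bright in all tumours, those with no low stretch included. Its signal was 666, 688, 838, 608, 765 and 707 in knockout livers 1 to 6 and 1092, 840 and 858 in heterozygous livers 1 to 3. In the tumours it was 243 in tumour 3, 409 in tumour 4, 272 in tumour 5-1, 387 in tumour 5-2, 583 in tumour 6-1 and 229 in tumour 6-2. Every tumour was below every liver, tumours 3, 5-1 and 6-2 were the lowest, and tumour 6-1 came closest to the livers. The difference of tumours from knockout livers was -1.06 ± 0.19 (SE, n = 6 and 6) on the log2 scale. Another bright probe set gave -1.06 ± 0.18, and the next -0.88 ± 0.20. The other 2 probe sets, with signals of 3.3 to 59.8, gave -0.41 ± 0.385 and -0.003 ± 0.23. With liver and tumour paired by animal over the 4 matched mice, the difference from the brightest probe set was -1.11 ± 0.29 (SE).

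Zfpm1, the GATA cofactor FOG1, behaved likewise at a lower level. It had 206, 252, 317, 219, 264 and 212 in knockout livers 1 to 6 and 276, 229 and 215 in heterozygous livers 1 to 3. Tumours 3, 4, 5-1, 5-2, 6-1 and 6-2 had 100.5, 128, 69.6, 171, 167 and 97.6. All tumours lay below all livers, and tumours 3, 5-1 and 6-2 were again the lowest. The difference from knockout livers was -0.996 ± 0.19 (SE), and -1.28 ± 0.27 from its second probe set. Paired by animal over the 4 matched mice, the brightest probe set gave -1.03 ± 0.28 (SE).

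Dpep1, a dipeptidase anchored in the cell membrane, had another order of groups. In knockout livers 1 to 6 it was 59.0, 28.3, 53.9, 28.3, 32.2 and 53.9, in heterozygous livers 1 to 3 it was 4.6, 6.7 and 3.6, and in tumours 3, 4, 5-1, 5-2, 6-1 and 6-2 it was 13.6, 3.3, 4.5, 6.8, 14.9 and 7.7. Knockout livers alone were high, and tumours and heterozygous livers overlapped near background. The difference of tumours from knockout livers was -1.55 ± 0.28 (SE), a size that rests on the added constant, being -0.802 with 4 times the constant and -2.462 with none. Paired by animal over the 4 matched mice, the difference was -1.55 ± 0.30 (SE). The other probe set of Dpep1, which missed the limit, gave -0.34 ± 0.42 with no pairing.

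Against heterozygous livers, which the choice of the stretch did not use, 2 of the 246 members passed the test in knockout livers (0.813%, against 1.68% of all genes), a share that is not above the background. Of these, 1 was higher (against 1.36% of all genes) and 1 lower (against 0.315%). The comparison shares the knockout livers with the values that chose the stretch. Dpep1 rose, with a mean of 42.6 ± 14.4 (SD, n = 6) against 4.97 ± 1.58 (SD, n = 3), a log2 change of 1.84 ± 0.34 SE (limma, adjusted p = 0.0112). Its high knockout livers also entered its choice, and since it passed the limit through them alone it had to read higher there. In limma the call was lost when either of 2 heterozygous livers was left out, with an adjusted p of 0.063 for liver 1 and 0.0624 for liver 3. The count of 2 called members became 1 without either of these and 23 with the tumours left out of the fit. It became 7 without any 1 of tumours 3, 4 and 5-1, and 4 without tumour 6-2. In the fit without tumours, 645 of all 9528 genes were called higher and 349 lower, against 130 and 30 in the main fit. Without tumours 3, 4, 5-1 and 6-2 in turn, 184, 207, 237 and 152 genes were higher and 46, 45, 61 and 33 lower. Without heterozygous livers 1 and 3 in turn, 31 and 39 were higher and 3 and 2 lower. The size of the Dpep1 change also rests on the constant, at log2 3.08 with none and 0.91 with 4 times the constant. The call was kept in both.

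Sult5a1 fell in knockout livers. Its signal was 292.5, 238 and 234 in heterozygous livers 1 to 3, 61.5 to 78.3 in the 6 knockout livers, with a mean of 67.8 ± 5.78 (SD, n = 6), and 55.8, 52.6, 41.2, 67.3, 101.7 and 61.7 in tumours 3, 4, 5-1, 5-2, 6-1 and 6-2. Every knockout liver and every tumour was below every heterozygous liver. The log2 change of knockout livers from heterozygous livers was -1.78 ± 0.21 (SE, limma, adjusted p = 0.000226). Tumour 5-1 was the lowest and tumour 6-1 the highest, and the tumours differed from knockout livers by -0.12 ± 0.17 (SE) on the log2 scale. In tumour 6-2 its log2 ratio was -0.12, above the median of its neighbours.

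**Figure D5:**
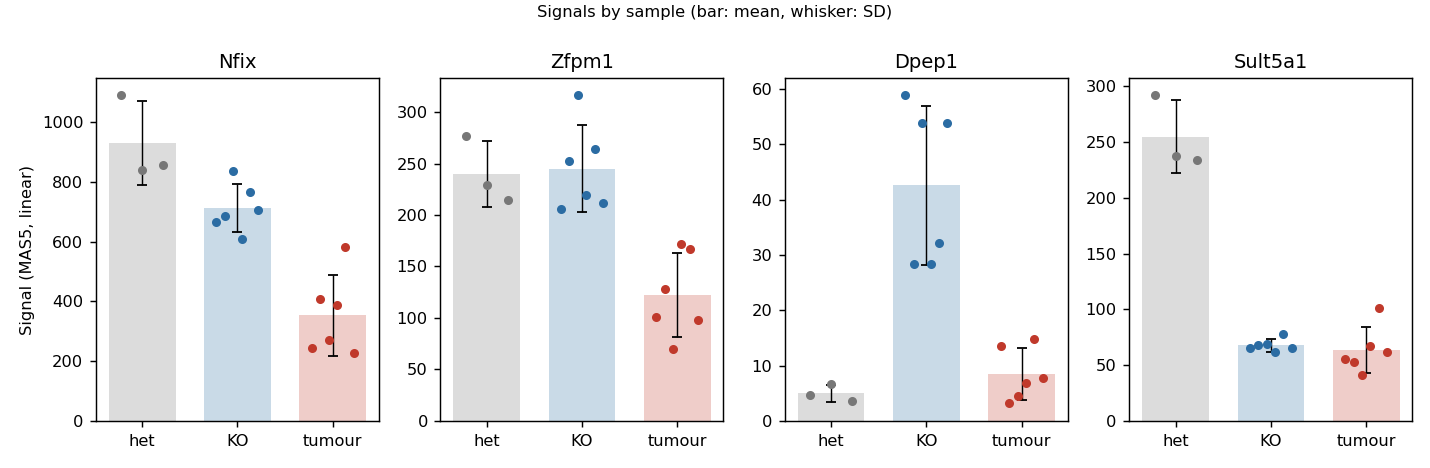
Signals (MAS5, linear scale) of Nfix, Zfpm1, Dpep1 and Sult5a1 in heterozygous livers (het), knockout livers (KO) and tumours, 1 point a sample, with the mean as a bar and the SD as a whisker. Nfix and Zfpm1 are lower in every tumour than in every liver, Dpep1 is high in knockout livers alone, and Sult5a1 is high in heterozygous livers alone.

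Over all members, knockout and heterozygous livers differed by a median log2 change of 0.005, against -0.019 over all genes. In 20 members all knockout livers were above all heterozygous livers (8.13%, against 8.01% of all genes), and in 18 they were below (7.32%, against 6.78%). Among the former were Dnajb1, Man2b1, Irf8 and Cyba, and among the latter Nfix, Gcdh, Car5a and Agt. Members at an unadjusted p under 0.05 in limma numbered 30 (12.2%, against 15.7% of all genes). The stretch as a whole was thus at the same level in both kinds of liver within 0.10 on the log2 scale in each of the 9 livers.

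Against knockout livers, limma called 3 members in the tumours, Nfix, Zfpm1 and Dpep1, all lower (1.22%, against 0.136% of all genes in either direction, 0.115% lower and 0.021% higher). The rule used this contrast, and the calls are not read as a result. When liver and tumour were paired by animal over the 4 matched mice, limma called 0 members and 0 of all genes. At an unadjusted p under 0.05 there were 32 members and 731 of all 9528 genes. With only these groups in the fit it also called 0 of both, with 52 members and 879 of all genes at such a p. The calls also depend on single libraries. Without tumour 6-1, 6 members were called, and over all genes 16 higher and 46 lower. Without tumour 5-2, 1 member was called, and over all genes 0 higher and 5 lower. Without any single one of the 13 other samples, 0 members were called. Over all genes these fits called 0 to 2 higher and 0 to 6 lower, against 2 and 11 in the main fit. The median difference was -0.27 over members and 0.008 over all genes. In 6 members all tumours were below all knockout livers (2.44%, against 0.567% of all genes): Nfix, Zfpm1, Dpep1, Got2, Man2b1 and Trappc2l. The rule used this contrast too, so nothing is read from the excess. Dpep1 passed the limit through knockout livers alone, which favoured its low reading in tumours. Got2, mitochondrial aspartate aminotransferase, had 3540 to 4238 in knockout livers and 2816, 3506, 1671, 2863, 3408 and 1838 in tumours 3, 4, 5-1, 5-2, 6-1 and 6-2. Tumours 4 and 6-1 came close to the lowest knockout liver, and tumours 5-1 and 6-2 were the lowest. Man2b1, a lysosomal mannosidase, had 943 to 1217 in knockout livers and 599 (tumour 6-2) to 939 (tumour 6-1) in tumours. Trappc2l, of a tethering complex of the Golgi, had 373 to 456 and 229.5 (tumour 6-2) to 359 (tumour 5-2).

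Among the members with the lowest mean difference, beside Nfix, Zfpm1 and Dpep1, were Nudt7, Cdh16, Cpne2 and Hsd17b2. Nudt7, a peroxisomal hydrolase of coenzyme A, had 1836 to 3284 in knockout livers and 4444 to 5809 in heterozygous livers. It had 644 in tumour 3, 160.0 in tumour 5-1, 1132 in tumour 6-2, and 1562, 1704 and 2691 in tumours 4, 5-2 and 6-1, a mean difference of -1.40 ± 0.46 (SE). Hsd17b2, which inactivates sex steroids, had 258, 288.5 and 272 in tumours 3, 5-1 and 6-2 and 716 to 1184 in knockout livers. Tumours 4, 5-2 and 6-1, at 1017, 757 and 898, lay within the range of the livers. Cdh16, a kidney cadherin (5.4 to 34.2 in tumours, 28.0 to 51.4 in knockout livers), and Cpne2, a copine (5.4 to 69.6 and 39.9 to 99.5), were dim.

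Most members with the highest differences were near background. Rfx1 (log2 1.06 ± 0.31 SE), Marveld3 (0.92 ± 0.43), Nol3 (0.79 ± 0.36), Fa2h (0.59 ± 0.31) and Mast1 (0.57 ± 0.20) had mean signals of 16.2 to 49.8. Adgre5 (0.57 ± 0.34) was brighter, with a mean signal of 188, and went both ways. It stood at 1.47 in tumour 3, 0.77 in tumour 5-1, 1.64 in tumour 5-2 and 0.58 in tumour 6-2. In tumours 4 and 6-1 it stood at -0.73 and -0.41, below all knockout livers.

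Genes of the stretch were also grouped by function, in 8 lists that together hold 132 members. Membrane traffic was the most uniform. All 16 of its members were below 0 in each of tumours 3, 5-1 and 6-2, with medians of -0.45, -0.58 and -0.68, and 10, 3 and 8 were below 0 in tumours 4, 5-2 and 6-1. Atp6v0d1, of the proton pump of lysosomes, was at -0.87, -1.22 and -0.43 in tumours 3, 5-1 and 6-2, and Vps35, of the retromer, at -1.03, -0.84 and -0.85.

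Metabolic enzymes and plasma proteins were the lowest list in tumour 5-1, with a median of -1.11 over 24 members, against -0.66 in tumour 3 and -0.77 in tumour 6-2. In these tumours 21, 20 and 21 of 24 were below 0. Medians in tumours 4, 5-2 and 6-1 were -0.030, -0.16 and -0.14. Got2 was at -1.34 in tumour 5-1, -0.47 in tumour 3 and -1.08 in tumour 6-2. Hepatocyte markers of the rest of the genome summed to 77614 in tumour 5-1, 92085 in tumour 3 and 86294 in tumour 6-2, and to 73318 in tumour 5-2, whose stretch was not low, and the part of hepatocyte content in these values was not tested. In bulk tissue, fewer cells of a type and less RNA per cell cannot be told apart.

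RNA processing and translation genes were below 0 in 15, 15 and 17 of 17 members in tumours 3, 5-1 and 6-2, with medians of -0.72, -0.47 and -0.66. Aars, alanyl-tRNA synthetase, was at -1.17, -2.21 and -1.12, and Nudt21, of the cleavage factor of mRNA ends, at -0.61, 0.080 and -0.72. Ubiquitin, proteasome and autophagy genes (13 members) had -0.47, -0.47 and -0.42, with the autophagosome proteins Map1lc3b at -0.98, -0.77 and -0.59 and Gabarapl2 at -0.61, -1.01 and -0.70. In tumour 4 both were above 0, at 0.54 and 0.26. Signalling genes (16 members) had -0.64, -0.56 and -0.63. Calr, the calcium-binding chaperone calreticulin, was at -0.45, -0.66 and -0.66, and Osgin1 at -0.88, -0.57 and -0.56. Calr was also at -0.53 in tumour 5-2, whose stretch was not low, and at -0.14 and -0.003 in tumours 4 and 6-1.

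Genes of replication, repair and the cell cycle (14 members) had medians of -0.52, -0.35 and -0.51 in tumours 3, 5-1 and 6-2. Rbl2, a relative of the retinoblastoma protein, was at -1.34, -0.54 and -1.36, and Rfwd3, a ubiquitin ligase of DNA repair, at 0.055, -0.46 and -0.48. Transcription factors and chromatin genes (19 members) had -0.40, -0.24 and -0.76. They were also at -0.41 in tumour 4, where 16 of 19 were below 0 and the median of the stretch was -0.049. Cbfb, the partner of RUNX factors, was at -0.95, 0.022 and -0.52 in tumours 3, 5-1 and 6-2.

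The list of immune cells, endothelium and adhesion departed from the stretch. Its 13 members had a median of -0.21 in tumour 3, but of 0.47 in tumour 5-1 and 0.12 in tumour 6-2, with 8, 2 and 5 of 13 below 0. In tumour 4, where the stretch was not low, all 13 were below 0 with a median of -0.37, and in tumour 5-2 the median was 0.38. Signals summed over 8 macrophage markers from the rest of the genome, all of them above the limit, were 5447 in tumour 5-1, 5988 in tumour 6-2, 3733 in tumour 3, 1009 in tumour 4, 3628 in tumour 5-2 and 3827 in tumour 6-1, with 2806 to 4839 in knockout livers and 2171 to 2199 in heterozygous livers. Over 6 endothelial markers, all above the limit, the sums were 819, 457, 661, 914, 497 and 1045 in tumours 3, 4, 5-1, 5-2, 6-1 and 6-2, with 819 to 1172 in knockout livers and 661 to 1006 in heterozygous livers. Tumour 4 was the lowest for both kinds of marker, and tumour 5-1 was high for macrophages and low for endothelium. Their part in the list was not tested. Its brightest members were Itgb1 and Nrp1, whose values stand above with the far edge.

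In knockout against heterozygous livers the 8 lists had medians between -0.23 and 0.26, and limma called 0 of their members. At an unadjusted p under 0.05, the most were 5 of 19 transcription factors and chromatin genes, and the fewest 0 of 16 signalling genes. Of all genes, 15.7% had such a p, and nothing is read from the order of the lists.

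Among members, Trir had the level pattern most like that of Nfix over the 15 samples (Pearson r 0.98), followed by Zfpm1 (0.92) and Lcat (0.92), lecithin-cholesterol acyltransferase. Nearest to Zfpm1 were Nfix, Tmem208 (0.91) and Trir (0.91), and nearest to Dpep1 were Man2b1 (0.74), Calr (0.68) and Smpd3 (0.68). These correlations are over samples of 3 groups and include the differences between groups. Trir had 455 to 590 in knockout livers, 528 to 672 in heterozygous livers and 277, 318, 291, 355, 502 and 227 in tumours 3, 4, 5-1, 5-2, 6-1 and 6-2. As for Nfix, tumours 6-2, 3 and 5-1 were the lowest, in that order.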

How the data were processed

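Per the labels, RNA of 15 livers and tumours was hybridised to Affymetrix mouse arrays. The deposited intensities were made by the authors with MAS5, per the submitters' processing notes (version not given in the sources used here), and their trimmed mean was about 150 on each array. From them log2(signal + 9.1) was computed, 9.1 being the 20th percentile of all signals. A gene was kept if a probe set passed the 40th percentile of its array in 3 or more arrays, and was represented by its brightest. Of 22690 probe sets, 20393 had 1 gene, 691 several and 1606 none listed in GEO's platform annotation, which can be old; gene order is that of RefSeq on GRCm38.p6. Groups were fitted over all 15 arrays with limma 3.58.1 in R 4.3.3 (lmFit, eBayes with trend), with the animal as a random block (duplicateCorrelation, statmod 1.5.0, consensus correlation -0.0175) and Benjamini-Hochberg adjustment over 9528 genes at 0.05; p-values measure the spread between these samples. Tested on simulated data for knockout against heterozygous livers (9528 genes), the fit recovered 46% of genes changed by log2 1 and 81% of those changed by log2 2. Members and lists were chosen with earlier results of these data known. Named genes were Nfix, Zfpm1 and Dpep1, 5 genes beside each edge, the 8 lowest and 6 highest members, members called in knockout against heterozygous livers, the 2 brightest members of each list and the 3 members most correlated with each of the first 3. Of the 8 lowest members, 1 is not reported here. Got2, Man2b1 and Trappc2l, and the examples from the genes whose livers did not overlap, were chosen after their values were seen, as was the split into runs. Alternatives changed the added constant, scaling, filter, probe set, reference, block and samples.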

Additional observations from a re-analysis of the deposited data

How the results depend on the processing

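The stretch medians of tumours 3, 5-1 and 6-2 stayed below 0 in all settings run, from -0.73 to -0.38, from -0.77 to -0.30 and from -0.78 to -0.43. Over the 82 brightest members (chosen after seeing the data) tumour 5-1 had -0.771, knockout livers 3 and 5 -0.116 and 0.137, and heterozygous liver 1 -0.019, which had -0.005 under the stricter filter. Members called by limma in knockout against heterozygous livers numbered 23 with only those groups in the fit and 1 to 7 with 1 sample left out. Of all 9528 genes, 645 were called higher and 349 lower with only those groups. With 1 sample left out, 31 to 237 were called higher and 2 to 61 lower. Of tumours against knockout livers, 0 members were called with the animal as a fixed replicate block in the 4 matched animals (the labels give the pairing; 32 at an unadjusted p under 0.05), 0 with only those groups in the fit (52) and 0 with no added constant (58), and 0 to 6 with 1 sample left out; with no block the counts were 2 and 3, as reported. Of all 9528 genes, 731, 879 and 965 had such an unadjusted p with the fixed block, only those groups and no constant. With 1 sample left out, 0 to 16 of all genes were called higher and 0 to 46 lower in tumours. The difference of Nfix was -0.414 and -0.003 from its dim probe sets. That of Dpep1 was -0.802 with 4 times the constant, -2.462 with none and -0.336 from its other probe set. Counted in genes from Ndufb7, the weak split of tumour 5-2 moved to 19 by squared deviation, -224 with quantile normalization and -101 with 4 times the constant, and ran from -224 to 221 with 1 knockout liver left out, and that of tumour 6-1 from -1 to 232. The split of tumour 4 lay at -14 or -15 in 7 of 10 alternatives and at 18 in the others. Splits of tumours 3 and 6-2 stayed at -123 and -15. Causes of these shifts were not tested. Dim signals near background limit all values of single genes.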
